A study of Mus musculus with 4 samples.

Results

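The S100, annexin and galectin genes described here are 10 genes of 22180 that had a probe set with a single gene symbol, namely S100a4, S100a6, S100a10, S100a11, S100a13, Anxa1, Anxa2, Anxa5, Lgals1 and Lgals3. They were chosen by symbol from the platform annotation with results of this comparison known, and the probe set rule's only measured value was brightness. The probe set with the highest mean log2 intensity over the 4 arrays stood for a gene. Each of the 10 had 1 probe set with a single gene symbol, so brightness did not decide between probe sets. RNA came from regulatory T cells (Treg, Foxp3-positive CD4 cells that restrain immune responses) of mice labelled as strain Foxp3Luci-DTR-4(B6 Albino), sorted as CD4+Foxp3+GFP+ cells 4 days after an antibody was injected into the peritoneum. In 2 samples the antibody was an agonist of death receptor 3 (DR3, a costimulatory receptor of the tumour necrosis factor receptor superfamily), and in the other 2 it was an isotype control. All 4 samples share the strain and its Foxp3 reporter. The organ, age and number of mice behind each sample are not stated in the labels, and nothing says that the replicates came from separate animals, so the p-values cover the spread of these 4 arrays alone, part or all of which may be technical.

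S100 proteins are small calcium-binding proteins that change shape when calcium enters the cell and then bind other proteins, among them annexins. Annexins bind membrane phospholipids in the presence of calcium and take part in membrane repair, vesicle traffic and exocytosis. Galectins bind sugars that carry galactose on cell surface glycoproteins, and galectin 1, the product of Lgals1, is known as one of the molecules through which Treg restrain other T cells. Genes of all 3 families are widely used as marks of activated, effector or memory lymphocytes as opposed to naive ones.

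After anti-DR3, 7 of the 10 genes rose, 0 fell and 3 did not pass an adjusted p of 0.05 (limma, Benjamini-Hochberg over all 12114 genes tested). Of all genes tested, 4.49% rose and 1.47% fell. The 10 genes were named with results of this comparison known, so their count is a description and nothing is drawn from it. The changes in level split into a group near or above a doubling in intensity (S100a6, S100a4, Lgals1, Anxa2 and S100a10) and a group of smaller changes (S100a13 and Anxa5). S100a11, Anxa1 and Lgals3 did not pass. The median log2 difference over the 10 was 0.70, and over all genes tested it was 0.010. On 9 of the 10 genes both anti-DR3 arrays lay above both control arrays, an arrangement that 31.6% of all genes tested showed.

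**Figure D1:**
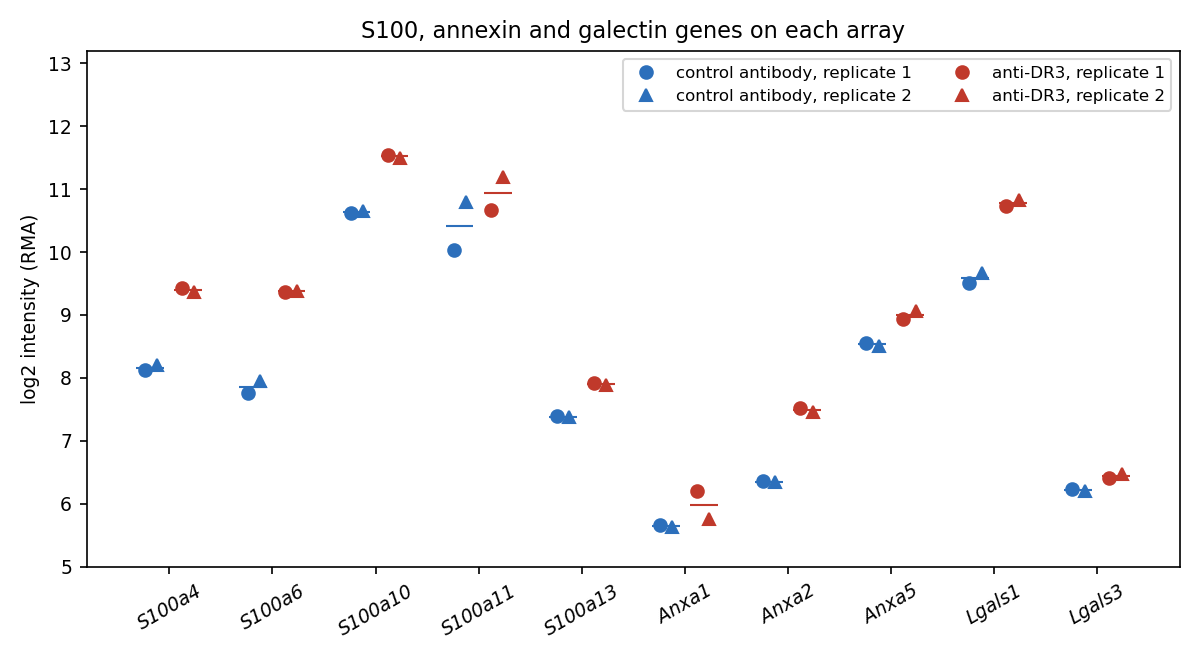
Log2 intensity (y axis) of the 10 genes (x axis) on each array, with control antibody in blue, anti-DR3 in red, circles for replicate 1, triangles for replicate 2 and short lines for group means. For S100a6 the anti-DR3 arrays lie at 9.37 and 9.38 and the control arrays at 7.76 and 7.94; S100a11 is the gene whose groups overlap.

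To show what lies upstream of the genes, the 250 bases before the RefSeq start site (build GRCm38.p6) were read for the 8 members found in the promoter table; S100a10 and Lgals1 were not among them. The promoters of S100a6, S100a4 and Anxa2 are printed because these were the 3 largest rises with a sequence, and that of S100a11 as that of a gene that did not pass. Each runs 5′ to 3′ on the strand of the gene, with motif matches in capitals.
S100a6, chr3:90612644-90612893, + strand: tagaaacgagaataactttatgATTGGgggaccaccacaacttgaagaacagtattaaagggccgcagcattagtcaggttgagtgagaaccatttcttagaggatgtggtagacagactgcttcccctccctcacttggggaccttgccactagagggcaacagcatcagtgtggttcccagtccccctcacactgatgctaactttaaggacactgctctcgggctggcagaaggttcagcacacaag
S100a4, chr3:90603520-90603769, + strand: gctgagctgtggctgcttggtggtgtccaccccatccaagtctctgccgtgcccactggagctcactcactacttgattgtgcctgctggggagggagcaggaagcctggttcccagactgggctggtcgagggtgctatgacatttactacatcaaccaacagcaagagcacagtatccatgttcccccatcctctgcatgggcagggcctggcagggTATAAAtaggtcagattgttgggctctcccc
Anxa2, chr9:69453433-69453682, + strand: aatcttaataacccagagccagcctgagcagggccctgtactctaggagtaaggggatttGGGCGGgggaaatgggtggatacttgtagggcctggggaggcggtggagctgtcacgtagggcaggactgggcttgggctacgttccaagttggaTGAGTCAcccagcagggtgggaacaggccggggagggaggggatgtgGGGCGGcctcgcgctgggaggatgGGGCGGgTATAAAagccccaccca
S100a11, chr3:93520246-93520495, + strand: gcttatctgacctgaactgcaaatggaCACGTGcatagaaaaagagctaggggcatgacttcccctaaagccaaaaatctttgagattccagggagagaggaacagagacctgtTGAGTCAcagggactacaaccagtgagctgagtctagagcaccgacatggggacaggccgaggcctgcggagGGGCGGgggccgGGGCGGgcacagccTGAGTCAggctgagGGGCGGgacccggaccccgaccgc

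The motifs searched were the AP-1 site TGANTCA, the GC box GGGCGG, the E-box CACGTG and the CCAAT box CCAAT on both strands, the TATA box TATAAA on the gene's strand, and the NF-kappaB and serum response (CArG box) consensus on both strands by name. In capitals, S100a6 holds a reverse CCAAT box at -228 to -224 from the start site, and S100a4 a TATA box at -31 to -26. Anxa2 holds an AP-1 site at -95 to -89, a TATA box at -17 to -12 and 3 GC boxes. S100a11 holds 2 AP-1 sites, at -136 to -130 and -38 to -32, with 3 GC boxes and 1 E-box. No printed match overlaps another.

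Among the members not printed, Anxa1 had a TATA box at -32 to -27, Lgals3 a GC box and a CCAAT box, both on the reverse strand, and S100a13 and Anxa5 had no match. Of 32851 promoters of this length, 6.75% held the AP-1 letters, 7.59% the TATA box, 32.7% the GC box, 6.02% the E-box and 33.8% the CCAAT box. The NF-kappaB consensus, which 3.9% of promoters held, and the CArG box, which 1.47% held, had no match in the 8 windows. These are matches of letters in a short window and not measured sites. The GC share of the window was 50.0% for S100a6, 57.2% for S100a4 and 62.4% for Anxa2, against a median of 52.4%.

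The S100 genes are taken first. S100a6 encodes calcyclin, which was described in proliferating fibroblasts and binds the calcyclin-binding protein of Cacybp. Its log2 intensities were 9.37 and 9.38 with anti-DR3 against 7.76 and 7.94 with the control. The groups stood apart by 1.43 at their nearest arrays, while the control arrays differed by 0.19 and the anti-DR3 arrays by 0.010. The rise was 1.53 ± 0.094 (SE, n = 2 arrays in each group) in log2 units, or 2.88-fold with a 95% interval of 2.46 to 3.38 (adjusted p = 0.00626, limma). Of the 12114 genes tested, 17 had a larger positive difference than S100a6.

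S100a4, also called metastasin, encodes a partner of non-muscle myosin that is tied to cell motility. Its log2 intensities were 9.43 and 9.36 with anti-DR3 against 8.12 and 8.21 with the control. Replicates lay within 0.092 of each other and the groups did not overlap. S100a4 rose by 1.23 ± 0.083 on the log2 scale, or 2.35-fold (95% interval 2.04 to 2.71, adjusted p = 0.00626, limma).

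S100a10 encodes p11, a member of the family that does not respond to calcium and forms a stable complex with annexin A2 at the plasma membrane. It gave log2 intensities of 11.55 and 11.49 with anti-DR3 against 10.62 and 10.66 with the control, so that each pair of replicates lay close and the pairs were far apart. The rise was 0.89 ± 0.079, or 1.85-fold (95% interval 1.62 to 2.11, adjusted p = 0.00988, limma). The log2 interval of S100a10, 0.69 to 1.08, did not reach that of S100a6, 1.30 to 1.76; the difference between them was not itself tested.

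S100a13, which takes part in the release of proteins that lack a secretion signal, had the tightest replicates of the set. Its log2 intensities were 7.91 and 7.88 with anti-DR3 against 7.39 and 7.38 with the control, and 96.3% of genes tested had a wider gap between replicates in at least 1 group than its own widest, 0.031. The rise was 0.52 ± 0.077, or 1.43-fold (adjusted p = 0.0252, limma).

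S100a11 encodes a partner of annexin A1 and was the exception among the S100 members. Its log2 intensities were 10.68 and 11.19 with anti-DR3 against 10.03 and 10.80 with the control. Replicate 1 was the lower array in both groups, by 0.51 after anti-DR3 and by 0.76 after control antibody, and the groups overlapped, since anti-DR3 replicate 1 lay below control replicate 2. The difference of 0.52 was as large as that of S100a13, but its SE was 0.28 (95% interval -0.16 to 1.20, adjusted p = 0.299, limma). Of all genes tested, 0.52% had a wider gap between replicates in either group. Leaving out anti-DR3 replicate 1 or 2 gave a difference of 0.78 or 0.26, and leaving out control replicate 1 or 2 gave 0.14 or 0.90.

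The rest of the S100 family was taken from a list of 16 genes. All 16 had a probe set with 1 symbol. Of these, 8 were too dim to be tested (above the array's median on fewer than 2 of the 4 arrays). Of the 8 tested 4 rose, against 4.49% of all genes tested, 0 fell and 4 did not pass. The 4 that rose were the members S100a4, S100a6, S100a10 and S100a13, which were chosen with these results known. Of the 3 tested outside the members 0 rose. The other genes tested were S100a3 with a difference of -0.0093, S100a7a with 0.0093 and S100a14 with -0.33 ± 0.099 (adjusted p = 0.106, limma). S100a14 gave 5.21 and 5.16 with anti-DR3 against 5.41 and 5.63 with the control, near the array medians of 5.33 to 5.39. S100a8 and S100a9, which encode calprotectin of neutrophils and monocytes, were among the dim ones, with log2 intensities of 3.16 to 3.17 for S100a8 and 4.27 to 4.58 for S100a9 over the 4 arrays. The count fell to 2 when anti-DR3 replicate 1 was left out, to 0 for anti-DR3 replicate 2 (4 by unadjusted p under 0.05) and to 3 for either control array.

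Most mouse S100 genes lie side by side on chromosome 3. The members that rose there, S100a13, S100a4 and S100a6, stood among genes that did not pass or were too dim to be tested. In RefSeq's gene order S100a4 stands between S100a2 and S100a5, and S100a6 between S100a5 and S100a7a. S100a5, the gene between the 2 large rises, was dim on all arrays, at 2.83 and 3.02 with anti-DR3 against 2.84 and 3.22 with the control. S100a2 was dim too, at 5.16 and 5.11 with anti-DR3 against 5.36 and 5.34 with the control. S100a13 stands between S100a1, dim at 5.31 and 5.27 with anti-DR3 against 4.82 and 5.06 with the control, and S100a14. Chtop, the gene before the cluster, differed by 0.0097 ± 0.077 (adjusted p = 0.956, limma). S100a10 and S100a11 are next to each other at another place on the same chromosome.

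**Figure D2:**
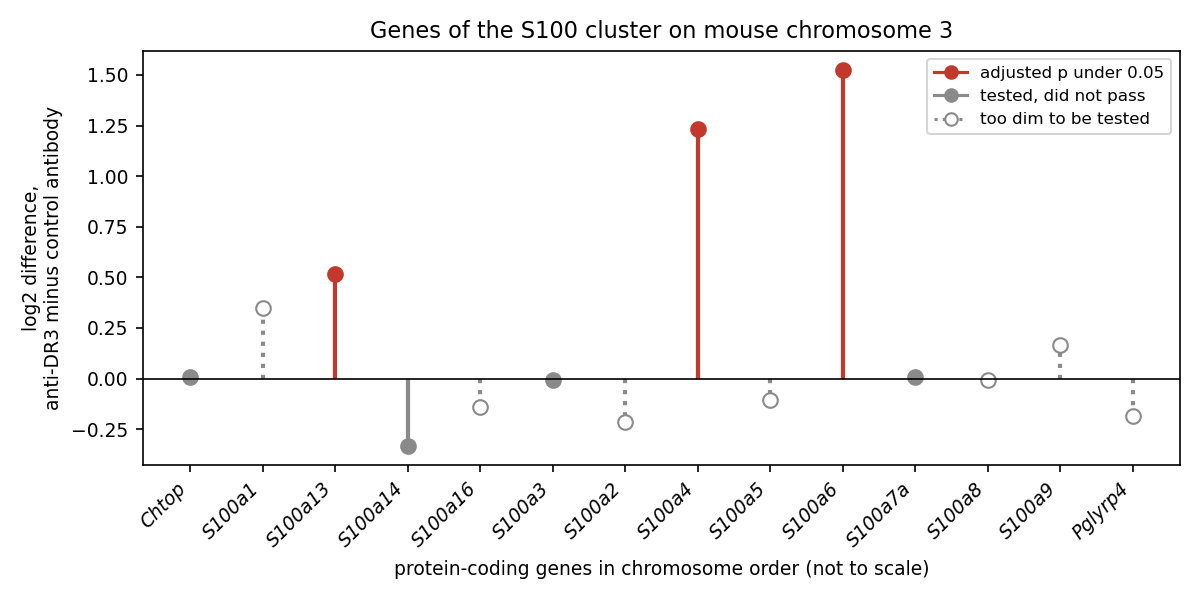
Log2 difference, anti-DR3 minus control antibody (y axis), of protein-coding genes in their order along the S100 cluster of chromosome 3 (x axis, not to scale), with red for an adjusted p under 0.05, grey for genes that did not pass and open circles on dotted lines for genes too dim to be tested. S100a13 (0.52), S100a4 (1.23) and S100a6 (1.53) rise between neighbours whose differences run from -0.33 to 0.35.

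Among the annexins, Anxa2 moved most. It encodes annexin A2, the partner of S100A10, which links the plasma membrane to actin and binds plasminogen at the cell surface. Its log2 intensities were 7.53 and 7.46 with anti-DR3 against 6.36 and 6.34 with the control. Replicates differed by 0.065 and 0.014 and the groups by at least 1.11. The rise was 1.14 ± 0.079, or 2.21-fold (95% interval 1.93 to 2.53, adjusted p = 0.00626, limma). The log2 intervals of Anxa2, 0.95 to 1.34, and of S100a10 overlapped.

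Anxa5 encodes annexin A5, best known as the probe for phosphatidylserine on dying cells. It gave 8.94 and 9.06 with anti-DR3 against 8.55 and 8.51 with the control, with no overlap and a nearest gap of 0.39. The rise was 0.47 ± 0.084, or 1.38-fold (adjusted p = 0.0373, limma), the smallest change among the 7 that passed. After centring each array on its median over the genes tested, the difference was 0.41 and Anxa5 no longer passed (adjusted p = 0.0548, limma).

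Anxa1 encodes annexin A1, a protein induced by glucocorticoids that dampens inflammation through formyl peptide receptors. Its log2 intensities were 6.20 and 5.76 with anti-DR3 against 5.67 and 5.63 with the control. Only anti-DR3 replicate 1 stood clear; replicate 2 lay 0.095 above the nearest control array. The difference was 0.33 ± 0.15 (95% interval -0.031 to 0.70, adjusted p = 0.223, limma). It was 0.11 without anti-DR3 replicate 1 and 0.55 without anti-DR3 replicate 2.

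Of 12 annexin genes listed, 11 had a probe set with 1 symbol and 6 of these were tested; Anxa11 is not analysed here. Of the 6, 3 rose, against 4.49% of all genes tested, 0 fell and 3 did not pass. The count includes members chosen with these results known, and of the 3 tested outside the members 1 rose. The median difference over the 6 was 0.41. The third rise, beside Anxa2 and Anxa5, was Anxa4, whose product regulates membrane permeability and exocytosis in epithelia. Anxa4 gave 7.24 and 7.22 with anti-DR3 against 6.13 and 6.50 with the control, a rise of 0.91 ± 0.13, or 1.88-fold (adjusted p = 0.0228, limma). Anxa6, an annexin abundant in lymphocytes, had a difference of 0.35 ± 0.081 (adjusted p = 0.0658) and Anxa7 one of 0.28 ± 0.11 (adjusted p = 0.194, limma for both). All 6 tested annexins had both anti-DR3 arrays above both control arrays, as did 31.6% of all genes tested. Leaving out anti-DR3 replicate 1 left 1 annexin called in limma, anti-DR3 replicate 2 left 0 (5 by unadjusted p under 0.05), control replicate 1 left 1 and control replicate 2 left 2.

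The 2 galectin members differed in size of change. Lgals1, the gene of galectin 1, gave log2 intensities of 10.74 and 10.82 with anti-DR3 against 9.51 and 9.67 with the control. The groups stood apart by 1.07 at their nearest arrays, against a widest replicate gap of 0.16. Lgals1 rose by 1.19 ± 0.093, or 2.28-fold (95% interval 1.95 to 2.67, adjusted p = 0.00910, limma).

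Lgals3, the gene of galectin 3, which forms lattices on glycoproteins, gave 6.41 and 6.47 with anti-DR3 against 6.24 and 6.20 with the control. The groups did not overlap, but the nearest gap was 0.17. The difference was 0.22 ± 0.079 (95% interval 0.028 to 0.42) and did not pass over all genes (adjusted p = 0.149, limma). The intervals of Lgals1, 0.96 to 1.41 on the log2 scale, and Lgals3 did not overlap; the difference between them was not itself tested.

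Of 10 galectin genes listed, 9 had a probe set with 1 symbol and 5 were tested. Among the 5, Lgals1 rose, 0 fell and 4 did not pass, while 4.49% of all genes tested rose. Lgals1 is a member chosen with these results known, and of the 3 tested outside the members 0 rose. Lgals9, the gene of galectin 9, gave 10.90 and 10.67 with anti-DR3 against 10.58 and 10.36 with the control, a difference of 0.31 ± 0.12 (adjusted p = 0.175, limma). Lgals8 differed by 0.14 ± 0.10 and Lgalsl by 0.28 ± 0.16, with overlapping groups for both. The 4 dim genes, Lgals2, Lgals4, Lgals7 and Lgals12, had array values below 5.39. Lgals1 stayed past the threshold when either control array was left out; when anti-DR3 replicate 1 or 2 was left out limma called 0 galectins (1 and 3 by unadjusted p under 0.05).

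**Figure D3:**
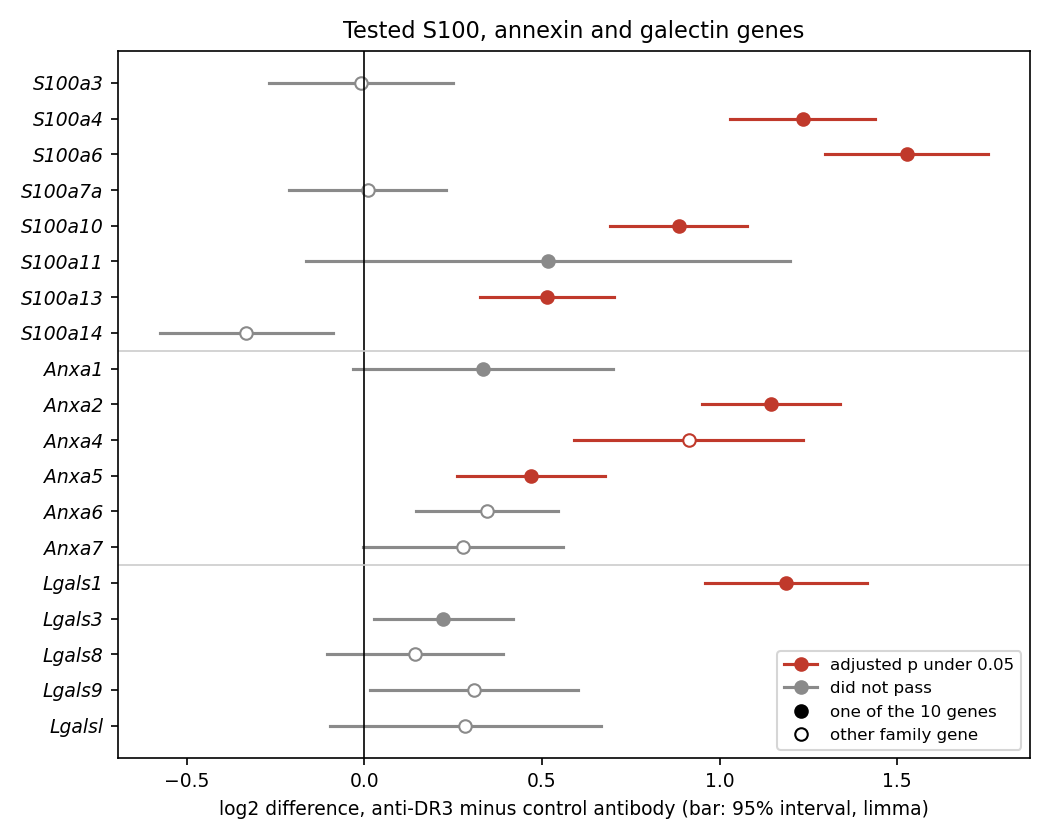
Log2 difference, anti-DR3 minus control antibody, with its 95% interval from limma (x axis) for all tested S100, annexin and galectin genes (y axis); red marks an adjusted p under 0.05, filled circles the 10 genes and open circles other genes of the families. Of the genes outside the 10, Anxa4 (0.91) is the one that passed, and S100a14 (-0.33) has an interval below 0.

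Over all genes tested, 544 rose and 178 fell (348 and 243 after the arrays were centred on their medians over these genes), and centring lowered each member's difference by 0.061. Of the 10 genes, S100a6, S100a4, Lgals1 and Anxa2 had 17, 33, 39 and 46 genes with a larger positive difference. The corresponding counts were 119 for S100a10, 475 for S100a13 and 590 for Anxa5. The plot of difference against mean intensity shows where these genes lie among all genes tested.

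**Figure D4:**
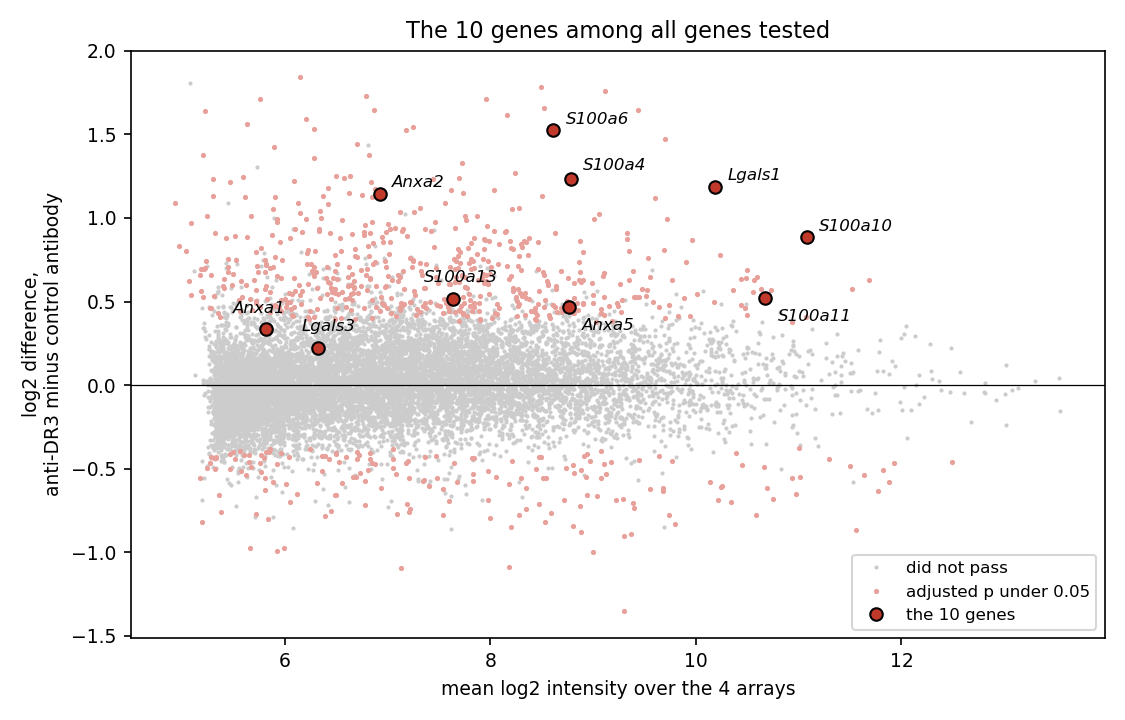
Log2 difference, anti-DR3 minus control antibody (y axis), against mean log2 intensity over the 4 arrays (x axis) for the 12114 genes tested, with genes past an adjusted p of 0.05 in light red and the 10 genes as large named points. S100a6 (1.53), S100a4 (1.23), Lgals1 (1.19), Anxa2 (1.14) and S100a10 (0.89) stand well above the bulk, while Lgals3 (0.22) and Anxa1 (0.33) lie inside it.

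The calls rested on all 4 arrays. Every fit with an array left out also called fewer of all genes tested than the 722 called with all 4. When anti-DR3 replicate 2 was left out, 0 of the 10 genes passed in limma (8 by unadjusted p under 0.05), and 0 of all genes did (1967 unadjusted). When anti-DR3 replicate 1 was left out, S100a4, S100a6 and Anxa2 passed. When either control array was left out, 5 passed, in both cases S100a4, S100a6, S100a10, Anxa2 and Lgals1. With all 4 arrays 8 of the 10 lay under an unadjusted p of 0.05, as did 26.1% of all genes tested. S100a13 and Anxa5 passed in 0 of the 4 fits. The differences moved little for the genes that had passed: S100a6 ran from 1.43 to 1.62, S100a4 from 1.19 to 1.28, Lgals1 from 1.11 to 1.27, Anxa2 from 1.11 to 1.18 and S100a10 from 0.86 to 0.91. Exact permutation of 2 arrays against 2 has a smallest possible p of 0.333, so none is given.

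**Figure D5:**
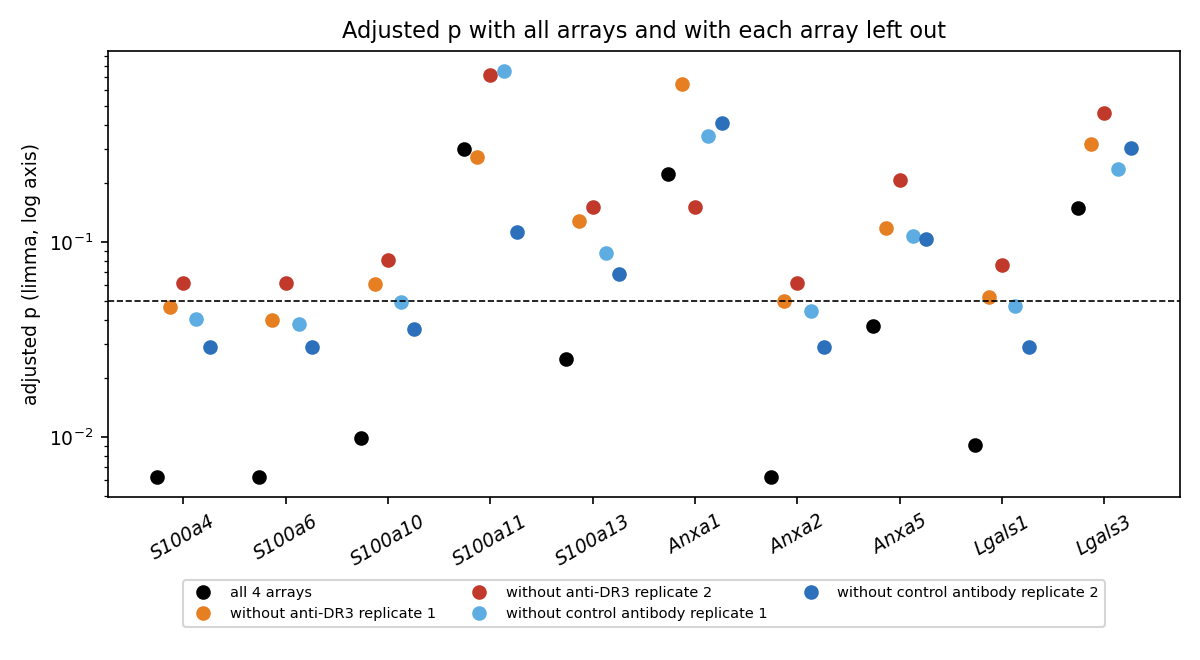
Adjusted p from limma (y axis, log scale) of the 10 genes (x axis) with all 4 arrays in black and with each array left out in colour; the dashed line marks 0.05. Without anti-DR3 replicate 2 the adjusted p of S100a4, S100a6 and Anxa2 was 0.0621 for each, against 0.00626 with all arrays, and no red point lies below the line.

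The proteins that S100 and annexin proteins bind or signal through were listed as 14 genes, of which 9 were tested. Here 2 rose, against 4.49% of all genes tested, 0 fell and 7 did not pass. The median was 0.15. Both rises, Sri (sorcin) by 0.43 ± 0.081 and Capns1, the small subunit of calpains, by 0.42 ± 0.079, encode calcium-binding proteins of another family (adjusted p = 0.0408 and 0.0421, limma). Neither passed after centring (adjusted p = 0.0589 and 0.0643, limma). Capn2, a large calpain subunit, had a difference of 0.29 (adjusted p = 0.0827). Among listed genes whose products bind that of a member, Cacybp, which binds S100A6, had 0.15 ± 0.087 and did not pass. Ahnak, the large scaffold bound by S100A10 and annexin A2, had 0.073 ± 0.11, and Myh9, the myosin bound by S100A4, 0.0038 ± 0.082. Neither Ahnak nor Myh9 passed. Annexin A2, the partner of S100A10, was not in this list, and its gene Anxa2 rose by 1.14. Ahnak and Myh9 turned sign when control replicate 1 was left out (-0.067 and -0.047), and Myh9 also without anti-DR3 replicate 2 (-0.011) and after centring (-0.057). Ager, the receptor for several S100 proteins, gave 6.29 and 6.09 with anti-DR3 against 6.54 and 6.48 with the control, a difference of -0.32 ± 0.096 (adjusted p = 0.108). Whichever array was left out, limma called 0 of these 9 genes (3 or 4 by unadjusted p under 0.05).

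Galectins act on sugars and on the glycoproteins that carry them, so 22 genes of glycan branching and of galectin ligands were listed, and all 22 were tested. Among them 4 rose, against 4.49% of all genes tested, 0 fell and 18 did not pass. The median was 0.098. Lag3, an inhibitory receptor, rose by 0.83 ± 0.080, Gcnt1, the enzyme that branches O-glycans, by 0.77 ± 0.084, Lgals3bp, a secreted glycoprotein bound by galectin 3, by 0.67 ± 0.10 and Cd44, the hyaluronan receptor, by 0.53 ± 0.099 (adjusted p = 0.0104, 0.0114, 0.0259 and 0.0403, limma). Cd44 did not pass after centring (adjusted p = 0.0643, limma). A dimmer probe set of Lgals3bp gave 0.22. Havcr2 is the gene of TIM-3, for which galectin 9 has been described as a ligand. It gave 6.0 and 6.76 with anti-DR3 against 4.76 and 5.39 with the control. Its difference of 1.30 ± 0.30 did not pass (adjusted p = 0.0616, limma). Havcr2 was above the array median with anti-DR3 alone, so it was tested only through the group where it is high. Leaving out either anti-DR3 array or control replicate 1 left 0 of the 22 called in limma (6 by unadjusted p under 0.05 each time), and leaving out control replicate 2 left 2.

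A list of 17 genes of the cytoskeleton, nuclear lamina and cell membrane in effector lymphocytes was tested whole. In it 4 rose, against 4.49% of all genes tested, 0 fell and 13 did not pass. The median was 0.33. Myo1f, an unconventional myosin, rose by 0.98 ± 0.12, Crip1 by 0.91 ± 0.081, Tagln2, which bundles actin, by 0.61 ± 0.10 and Vim, the intermediate filament vimentin, by 0.58 ± 0.082 (adjusted p = 0.0156, 0.00988, 0.0291 and 0.0223, limma). Dimmer probe sets of Tagln2 and Vim gave 0.46 and 0.84. Leaving out either anti-DR3 array left 0 called in limma (10 by unadjusted p under 0.05 each time), control replicate 1 left 1 and control replicate 2 left 2.

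The 5 genes outside the set whose values over the 4 arrays were nearest to the median profile of the 10 genes were Zdhhc2, Lmnb1, Tacc3, Susd2 and Fam110a. Each gene's values were taken minus its own mean, and the root mean square distance from the profile over 4 arrays was 0.012 for Zdhhc2 and 0.033 for Fam110a on the log2 scale. Zdhhc2, a palmitoyltransferase, gave 8.40 and 8.44 with anti-DR3 against 7.46 and 7.65 with the control. Lmnb1 encodes the nuclear lamina protein lamin B1 and Tacc3 a protein of the mitotic spindle. Their differences ran from 0.85 for Susd2 to 0.91 for Tacc3. With 4 arrays in 2 groups, likeness of this kind is mainly a like difference between groups.

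Genes next to the other members on their chromosomes did not pass the test or were too dim. Ice2, before Anxa2, had a difference of -0.36 ± 0.092 (adjusted p = 0.0787, limma). Pdxp and Nol12, on either side of Lgals1, had 0.14 ± 0.083 and -0.050 ± 0.12. Dlgap5, a mitotic gene next to Lgals3, had 0.49 ± 0.11 (adjusted p = 0.0616), more than Lgals3 itself.

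The sorted cells carried the marks of Treg on all arrays, with log2 intensities of 11.81 to 11.93 for Foxp3, 12.35 to 12.40 for Cd3e and 10.66 to 10.99 for Cd4. Of the 6 Treg markers tested, 1 rose and 1 fell, against 4.49% and 1.47% of all genes tested. Ikzf2, the gene of the transcription factor Helios, rose by 0.58 ± 0.077 (adjusted p = 0.0193, limma). Il2ra, the gene of the interleukin receptor chain CD25, gave 10.49 and 10.36 with anti-DR3 against 10.98 and 10.84 with the control and fell by 0.49 ± 0.095 (adjusted p = 0.0441, limma). Whichever array was left out, limma called 0 of the 6 (3 by unadjusted p under 0.05). In RNA from a sorted population, more cells of a type and more RNA per cell cannot be told apart. Of 11 proliferation markers tested 8 rose, against 4.49% of all genes tested. These were Ccna2 (1.84), Mki67 (1.78), Ccnb2 (1.54), Top2a (1.53), Rrm2 (1.13), Aurkb (0.88), Tk1 (0.69) and Mcm6 (0.64). Their adjusted p ran from 0.00606 to 0.0321 (limma). Ccna2, at 5.16 and 5.29 with the control, was above the array median with anti-DR3 alone. It was tested only through the group where it is high, so nothing is drawn from its call. A dimmer probe set of Rrm2 gave 0.23. The summed intensity of the 13 proliferation genes with a probe set was 2583 and 2626 with anti-DR3 against 1194 and 1277 with the control. S100 genes, annexins and galectins are also high in myeloid cells. Of 9 monocyte and macrophage markers with a probe set, 6 were tested and 1 rose, against 4.49% of all genes tested. It was Csf1r, by 0.42 ± 0.077, which did not pass after centring (adjusted p = 0.0627, limma). Differences of the 6 ran from 0.090 to 0.47. Of the 3 dim markers, Adgre1 (-0.34) and Fcgr1 (-0.32) had both anti-DR3 arrays below both control arrays. Cd14 (0.22) had overlapping groups. The summed intensity of the 9 was 501 and 559.6 with anti-DR3 against 449.97 and 486 with the control. Of 9 neutrophil markers 8 were too dim to be tested, and the summed intensity was 216 and 209.95 with anti-DR3 against 220.02 and 227 with the control. For type 2 innate lymphoid cells 5 markers were listed, genes that effector Treg also express. Of these, 4 were tested and 3 rose (Klrg1, Rora and Il9r), against 4.49% of all genes tested. The summed intensity of the 4 was 1769.8 and 2054 with anti-DR3 against 885 and 775 with the control. The part of these cells and of proliferation in the rises of the 10 genes was not tested. The count of proliferation genes called in limma was 4 with anti-DR3 replicate 1 left out, 0 for anti-DR3 replicate 2 (10 by unadjusted p under 0.05), 4 for control replicate 1 and 7 for control replicate 2. Csf1r passed in 0 of these 4 fits (2, 2, 2 and 3 of the macrophage markers by unadjusted p), and of the innate lymphoid markers 1, 0 (4 by unadjusted p), 1 and 1 passed.

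Markers of other lineages that the sort could have let through were mostly too dim to be tested or did not pass. Of B cell markers 1 was tested (Cd79b, 0.18) and 4 were dim, of plasma cell markers 2 were tested and 3 dim, and of dendritic cell markers 1 was tested and 4 dim, with 0 called in limma in each list and 0 under an unadjusted p of 0.05. Natural killer cell markers had 1 tested and 0 called (0 unadjusted), stromal, endothelial and epithelial markers 5 tested and 0 called (0 unadjusted), and erythroid and platelet markers 2 tested and 0 called (0 unadjusted). Of the CD8 T cell markers, Cd8a was dim and Cd8b1 rose by 0.49 ± 0.093 (adjusted p = 0.0416, limma). Cd8b1 did not pass in limma whichever array was left out (adjusted p = 0.0991 to 0.215) or after centring (adjusted p = 0.0614).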

How the data were processed

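The data were Affymetrix whole-transcript arrays of 4 samples of sorted mouse Treg, 2 per group. The authors deposited 1 intensity per probe set on a linear scale, made by RMA per the submitters' processing notes; which software and genome build were used is not given in the sources used here. That the scale is linear follows from the values themselves. RMA brings the arrays close to a shared distribution, so a shift common to all genes would not show. Small offsets remained: the array medians were 5.33 and 5.34 with anti-DR3 against 5.38 and 5.39 with the control. The platform annotation gave 23521 of 41345 probe sets 1 symbol each; those with several (1814) or none (16010) were left out.

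Log2 was taken. A gene was its brightest probe set, tested where above the array's median on at least 2 of 4 arrays (12114 genes, 10066 dim). The test was limma's (version 3.58.1, R 4.3.3; lmFit, eBayes, two-sided, Benjamini-Hochberg, threshold 0.05). Differences are anti-DR3 minus control antibody. Precision is limited by the number of arrays. The code was tested on simulated data. Promoters came from RefSeq (GRCm38.p6); the chromosome order came from a RefSeq table of that build.

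The members and lists were chosen with earlier results of these data known. The text names the 10 genes, the listed genes that passed, some other genes of the lists, the 5 nearest profiles, and genes next to a member. S100a2, absent from the S100 list, entered as such a neighbour.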

Additional observations from a re-analysis of the deposited data

How the results depend on the processing

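All 119 values of the 10 genes under the 12 alternatives kept their direction. Only leaving out an array or centring could change a difference of these genes. Under the other alternatives their direction was fixed in advance. Of the 119 values, 90 kept their side of the threshold and 29 lost the call. Anxa1 had no value under the stricter filter. The 10 genes had 0 to 5 calls with each array left out, 2 with no filter on dim genes (S100a4 and S100a6, 7 under an unadjusted p of 0.05) and 0 in the ordinary linear model (8 unadjusted). All genes had 0 to 312 calls with each array left out, 14 with no filter, 1157 with the stricter filter, 1444 with a trended robust prior, 0 in the ordinary linear model (2087 unadjusted) and 1689 at an adjusted p of 0.10; the causes were not tested. The labels do not say what replicate numbers share, and deviations of same-numbered arrays correlated at 0.051 over genes. The replicate block gave 563 calls, 497 shared with the fit without it, and 6 of the 10 genes: Anxa5 had an adjusted p of 0.0580, and S100a11 one of 0.0596 with an SE of 0.097, against 0.28 (limma; over all alternatives 0.0052 to 0.242 for Anxa5 and 0.0596 to 0.754 for S100a11). With the block Sri, Capns1, Csf1r and Cd8b1 lost their calls (adjusted p = 0.0652, 0.0647, 0.0598 and 0.0578) and Havcr2 gained one (0.0206). For the lists, alternatives were added after seeing the data. With each array left out S100a3 ran from -0.12 to 0.099, S100a7a from -0.070 to 0.089, Myh9 from -0.047 to 0.055 and Ahnak from -0.067 to 0.21, so these turned sign. S100a7a also turned to -0.051, and Myh9 to -0.057, after centring. The other turned values were 0.055 for S100a3, -0.0059 for S100a7a and -0.011 for Myh9.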

Other observations

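S100a11 belonged to a small set of genes in which the array numbered 2 exceeded the array numbered 1 by more than 0.5 (log2) in both groups. Of the 12114 genes tested 11 did so, or 0.0908%, and 6 showed the opposite. The set was looked for after the values of S100a11 had been seen. Cwc22, a splicing factor gene, had the widest gap, with 7.25 and 9.37 with anti-DR3 against 7.21 and 9.46 with the control. Mex3c, an RNA-binding protein gene, gave 8.86 and 9.57 with anti-DR3 against 8.86 and 9.78 with the control. Tpm3, a tropomyosin gene, gave 9.71 and 10.40 with anti-DR3 against 9.43 and 10.23 with the control. Havcr2 was in the set as well; its difference between the antibodies did not pass with all arrays (adjusted p = 0.0616, limma). What the arrays of 1 number share is not given in the labels.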
